A study of Mus musculus with 5 samples.

Results

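The cytosolic ribosomal protein genes were followed in the luminal layer of the mouse uterus before and after embryo attachment. They were taken by name as the gene symbols that begin with Rpl or Rps followed by a number, together with Rplp0, Rplp1, Rplp2 and Rpsa. This rule found 84 of the 23420 genes in the deposited table. They comprised 31 genes of the small subunit, 43 of the large subunit, 3 of the ribosomal stalk and 7 paralogs, which are related copies of a core gene. Symbols that begin with Rps followed by a number and a k, such as the S6 kinases, were not among them, nor were mitochondrial ribosomal proteins.

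All 5 libraries came from wild-type C57BL/6N mice, with no transgene or deletion and with no treatment named in the labels, and the age of the mice was not given in the sources used here. The groups were day 3 morning, day 4 morning and day 4 evening of pregnancy, and, on day 5 morning, luminal layer taken at a distance from the attached embryo or directly around the embryo. The day 5 libraries are also labelled Mpole (away) and Ampole (around). The study abbreviates the mesometrial pole as M and the anti-mesometrial pole as AM. Pole and distance from the embryo thus cannot be told apart on day 5, and the earlier libraries carry no pole label. In the study, day 1 was the day of the vaginal plug, and sites of attachment on day 5 were made visible with an injected blue dye. Each group was 1 library of RNA, so that no difference between groups has a replicate check and no p-value is given. For a single gene, the values in brackets are 95% limits of the ratio of its counts in 2 libraries (exact, Clopper-Pearson). For a median they are 95% limits from binomial order statistics over genes that are not independent. Both leave out the spread between mice and cover, for a single gene, counting error only.

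The libraries held between 15334674 and 19529491 counts. All 11 luminal epithelial markers, keratins and Cdh1 among them, were counted in every library, at a summed level of 5140 to 14500 CPM. The lowest sum was away from the embryo and the highest on day 4 morning. CPM are counts per 1000000 of a library total that was adjusted by the TMM method, so that they differ from shares of the raw counts. Of 12 embryo and trophoblast markers, all 12 had counts around the embryo and between 6 and 7 in each other library. Cdx2, Pou5f1, Nanog and Gata4 were at 0 in the other 4 libraries and at 22, 68, 10 and 54 counts around the embryo. Not all 12 went this way. Sox17 was abundant in every library (14211 to 39217 counts), and Afp had 6 counts on day 3 and 1 around the embryo. The summed level was 2410 CPM around the embryo and 770 to 2140 CPM elsewhere, most of it from Sox17 (2280 CPM around the embryo). The summed level of 7 smooth muscle markers was 395 CPM around the embryo and 10.9 to 31.8 CPM elsewhere. That of 7 endothelial markers was 108 CPM there and 16.1 to 52.3 CPM elsewhere. That of 6 glandular markers was 30.4 CPM and 1.26 to 4.23 CPM, with Ttr at 0 in every library. Single genes held most of these sums around the embryo, namely Des (354 CPM), Cdh5 (71.4 CPM) and Lif (17.7 CPM). The study places Lif in stroma around attached embryos as well as in glands. Emcn, Kdr and Tie1 had their lowest levels there (1.57, 1.05 and 0.465 CPM), whereas Pecam1 and Esam had their highest. Foxa2, at 1.22 CPM, was below its 2.84 CPM of day 4 morning, whereas Prss28, Prss29 and Spink3 were highest around the embryo. Lower around the embryo were the sums of 8 immune and blood markers (163 CPM, and 449 to 1260 CPM elsewhere, with Hba-a1 at 0 throughout) and of 11 stromal markers (523 CPM, and 697 to 816 CPM elsewhere). Among the immune markers, Cd68 went from 9.99 CPM on day 4 evening to 38.9 CPM around the embryo, against the sum. The stromal markers did not go together either, since from day 4 evening to around the embryo Hand2 went from 6.45 to 132 CPM and Lum from 77.1 to 6.68 CPM. Markers of other cell types thus differed in the library from around the embryo, in both directions within some lists. Their part in the values below was not tested.

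A ribosome is built from ribosomal RNAs and a single copy of most ribosomal proteins, apart from the stalk, which holds several copies of Rplp1 and Rplp2. Cells make the proteins in matched amounts, and their mRNAs share a short run of pyrimidines at the 5′ end (the 5′ terminal oligopyrimidine, or TOP, element) that begins with C at the cap. Translation of such mRNAs is switched by the kinase mTOR, with the protein Larp1 binding the capped pyrimidines. This control acts on translation, so that mRNA counts do not report on it.

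Promoter sequences of 63 members were found in RefSeq (GRCm38.p6). A pyrimidine tract of at least 8 bases that starts with C, searched on the strand of the gene within 50 bases of the annotated start, was present in 52 of these 63 members (82.5%) and in 32.0% of all 27025 genes with such a sequence. The letters CCGGAAG, the core bound by ETS factors, were found on either strand within 250 bases before to 50 bases after the start in 41.3% of the members and in 9.93% of all genes. CACGTG, the E-box letters of Myc, were present in the same window in 9.52% of the members and 8.09% of all genes, and TATAAA, searched on the strand of the gene within 50 bases of the start, in 7.94% and 4.05%. The letters AAGATGGC, known from YY1 sites, were present on either strand in 9.52% of the members and in 3.19% of all genes. Such a match is a description of the letters and not a site of binding. The tract windows of members on which the results below turn are printed 5′ to 3′, 30 bases each, with the tract in capitals. They are shown so that members that were lower around the embryo than on day 4 evening (Rps18, Rpl22, Rps15a, Rpl31, Rpl39), members that were higher (Rps2, Rplp0, Rplp2) and paralogs (Rpl22l1, Rpl39l, Rpl10l) can be read side by side. Where a gene has more than one annotated start, the window with the longest tract is given.
Rps18 (chr17:33955648-33955677, minus strand): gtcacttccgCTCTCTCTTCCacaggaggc
Rpl22 (chr4:152325679-152325708, plus strand): ccgtctgaCTCCTCCCTTTCCCgacagccg
Rps15a (chr7:118116143-118116172, minus strand): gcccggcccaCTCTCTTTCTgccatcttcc
Rpl31 (chr1:39367824-39367853, plus strand): ctcgccacaCCTCTTCCTCCTCgcctcccc
Rpl39 (chrX:37085173-37085202, minus strand): gttcttccggtcccggCCTTTCTCTTCTCC
Rps2 (chr17:24720083-24720112, plus strand): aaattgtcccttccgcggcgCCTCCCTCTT
Rplp0 (chr5:115559467-115559496, plus strand): ggaccgcctggttCTCCTataaaaggcaca
Rplp2 (chr7:141447636-141447665, plus strand): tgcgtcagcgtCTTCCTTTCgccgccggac
Rpl22l1 (chr3:28805500-28805529, plus strand): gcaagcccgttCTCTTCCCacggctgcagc
Rpl39l (chr16:10170191-10170220, plus strand): aacacccactgCCTCTCCCTagctcccagg
Rpl10l (chr12:66284395-66284424, minus strand): aacagaaatttggCCTCCattttgcggctg

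The tract was 11 bases long in Rps18, 14 in Rpl22, 10 in Rps2 and 9 in Rpl39l. In Rplp0 and Rpl10l the longest tract within 50 bases of the annotated start was 5 bases. Long tracts stood beside members that were lower around the embryo than on day 4 evening and beside Rps2, which was higher. Counted from the annotated start, the first base of the tract was at -2 in Rps18, -39 in Rpl22 and -15 in Rps15a. It was at -18 in Rpl31, 37 in Rpl39, 41 in Rps2 and 14 in Rplp0. Whether any of these tracts begins at the cap, and so is a TOP element, was not tested. The 100 bases before the start are shown for Rps18, one of the members with the largest difference between the day 5 libraries, and for Rpl39l, the paralog counted almost only around the embryo. CCGGAAG is in capitals.
Rps18 (chr17:33955666-33955765, minus strand): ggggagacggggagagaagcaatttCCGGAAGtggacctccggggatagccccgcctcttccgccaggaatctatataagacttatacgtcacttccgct
Rpl39l (chr16:10170128-10170227, plus strand): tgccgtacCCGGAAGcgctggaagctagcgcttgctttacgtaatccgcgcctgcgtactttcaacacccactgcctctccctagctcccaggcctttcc

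Ribosomal protein mRNA took 2.573% to 2.904% of the counts in the libraries from before attachment and a smaller part around the embryo. The 84 genes held 2.873% of all counts on day 3, 2.573% in the morning of day 4 and 2.904% in its evening. On day 5 they held 3.022% away from the embryo (Wilson 95% interval 3.013 to 3.03%) and 2.019% around it (2.012 to 2.025%). The share was lowest around the embryo, by more than counting error. The counts on Rn45s, the ribosomal RNA precursor, and on Lars2, which took 15.0% to 23.2% of a library together, move these shares. Without both features the shares were 3.379%, 3.351%, 3.65%, 3.559% and 2.423% in the same order, so that the share around the embryo stayed the lowest and day 4 evening replaced day 5 away as the highest.

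Levels per length spanned a wide range among the members although the proteins are needed in like amounts. The unit used for this was RPKM, which is CPM after scaling by the TMM method divided by the gene length in kilobases. The median of the mean RPKM over 5 libraries was 359 for the small subunit, 193 for the large subunit and 7.32 for all 12915 genes that reached a mean of 1 CPM or more, which are the genes tested below. The members with the highest mean RPKM were Rpl41 (4180), which encodes the smallest ribosomal protein, and the large subunit genes Rpl7 (2090) and Rpl32 (1410). Rps14 (1400) and Rps18 (1260), which encode proteins of the platform and the head of the small subunit, followed. The stalk genes did not share a level, since Rplp0 had a mean RPKM of 1210 and Rplp1 of 1140, whereas Rplp2 had 80.2 to 119 in the 5 libraries. The order of the members hardly moved between libraries, with a rank correlation of RPKM across the 81 members tested between 0.956 and 0.991 for the 5 comparisons, in values that share gene lengths.

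The lowest core members were those whose exons lie inside another feature of the table. Rpl26, which has 95.8% of its exon bases in Gm15772, was at 0 counts in all 5 libraries. Rpl30, with 76.0% in Gm12191, had 10 to 17 counts, Rpl34, with 67.2% in Rpl34-ps1, had 32 to 75, and Rps27, with 60.0% in Gm9846, had 30 to 120. All 4 of these partner features were at 0 in every library. No other core member was overlapped over as much as 50% of its exon bases. The next lowest genes, Rps21 (28 to 95 counts, mean RPKM 7.91) and Rps29 (mean RPKM 14.1), had no overlap. The part of the counting in these low values was not tested.

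**Figure D1:**
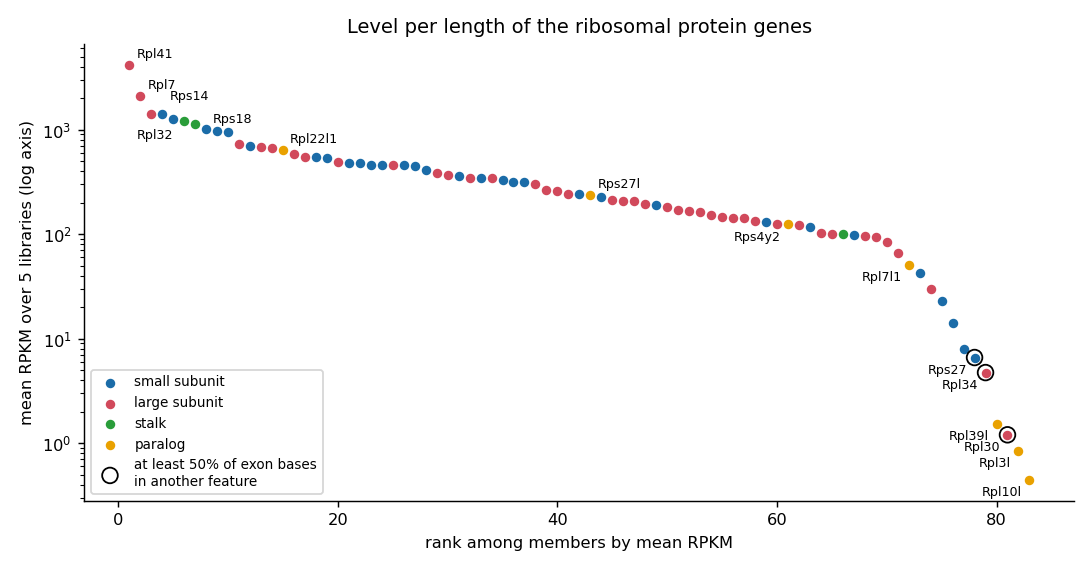
Mean RPKM over 5 libraries (log axis) of the members in descending order, coloured by role, without Rpl26, which was at 0. Rpl41 is the highest at 4180, most members lie between 100 and 1000, and the ringed genes Rps27, Rpl34 and Rpl30, with at least 50% of their exon bases inside another feature, lie at 6.59 and below.

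Copies of ribosomal protein genes are frequent in the mouse genome. Of the 84 members, 76 shared at least one 100-base word with the transcript of another gene in GENCODE M21, and 28 shared more than 50% of their words. Rps2 shared 58.5% of its words with 36 other genes, all of them pseudogenes, and Rps18 shared 57.3% with 7 genes. Rps14 (15.0%), Rpl39 (1.75%) and Rpl22 (0%) shared little or nothing. How the counting treated reads with several alignments was not given in the sources used here, and differences of members with many copies are to that extent uncertain. In 33 tested members with under 10% overlapped exon bases and under 25% shared words, the medians of all 5 comparisons differed by at most 0.012 on the log2 scale from those of all 81 members.

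Over the 5 libraries the members moved less than all genes tested, which were not matched to them for level. The median of the mean RPKM was 244 for the members tested and 7.32 for all genes tested. The part of level and of counting error in the smaller differences of the members was not tested. The differences were taken in log2 CPM with a prior count of 2, on which a difference of 1 is a 2-fold change. Of the 84 members, 81 reached a mean of 1 CPM, and Rpl26, Rpl30 and Rpl10l did not. The range over the 5 libraries was under 2-fold in 66 of the 81 members (81.5%) and in 35.2% of all genes tested. The median range was 0.54 on the log2 scale for the members and 1.36 for all genes. The highest level of 37 members (45.7%) was on day 4 evening, where 14.7% of all genes had theirs. The lowest level of 47 members (58.0%) was around the embryo on day 5, where 32.2% of all genes had theirs. With other library scalings the number with the lowest level around the embryo was 42 to 59, and the number with the highest on day 4 evening was 20 to 37. The shares of all genes were not computed for those scalings. With library totals more members had their highest level away from the embryo (47) than on day 4 evening (20). The same held with totals without Rn45s and Lars2 (38 and 26).

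**Figure D2:**
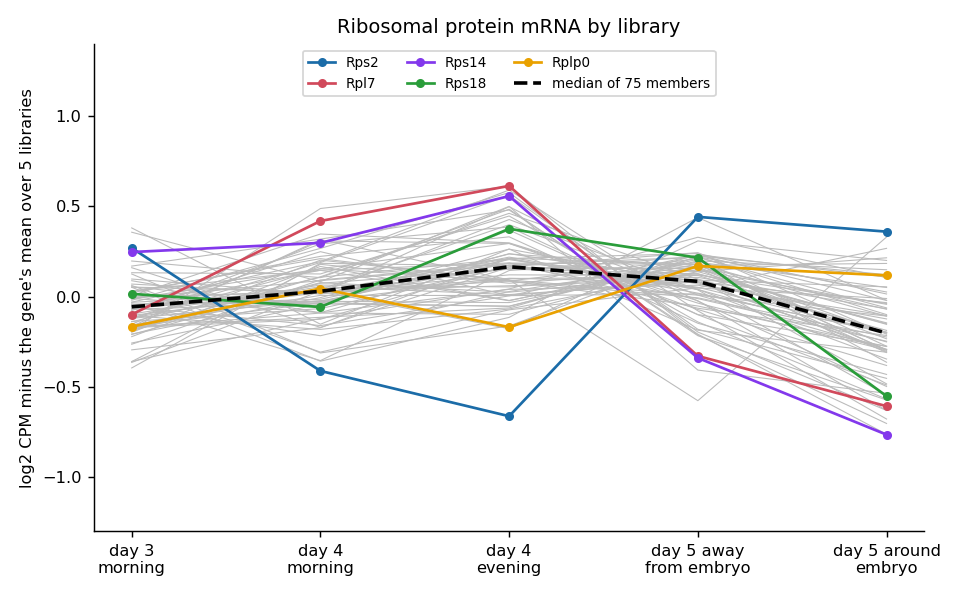
Log2 CPM of the 75 members with a mean CPM of 10 or more in each library, minus the mean of the gene over the 5 libraries (grey lines), with 5 named genes in colour and the median dashed. Rpl7 and Rps14 are highest on day 4 evening and low on day 5, Rps2 is lowest on day 4 evening, Rps18 is low only around the embryo, and the median is lowest around the embryo.

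From day 3 morning to day 4 morning, when serum progesterone rises and the epithelium stops dividing, the members were slightly higher in the median with TMM scaling. The median difference was 0.12 [0.05, 0.18] on the log2 scale, against 0.003 over all genes, and it turned to -0.18 with library totals and to -0.03 with totals without Rn45s and Lars2. No member was more than 2-fold higher (7.47% of all genes were) and 1, the paralog Rpl39l with 7 counts and then 0, was more than 2-fold lower (11.5% of all genes). The number of members higher by any amount was 58 of 81, beside 50.3% of all genes, and 17 of 81 with library totals. Scaling by totals shifted the median of all genes by -0.29 in this comparison, so that relative to all genes the members were higher in both.

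Among the abundant members with the largest differences upward in this step were Rpl10 and Rpl7a. Rpl10, which joins the large subunit late in its assembly, differed by 0.58 [0.50, 0.66] and Rpl7a by 0.54 [0.43, 0.65]. In the other direction stood Rps2, which lines the mRNA entry channel of the small subunit, from 6593 to 4253 counts or -0.68 [-0.74, -0.62]. The paralog Rps27l differed by -0.53 [-0.62, -0.44], and Rpl38, known for its part in the translation of Hox mRNAs, by -0.44 [-0.64, -0.23]. The differences of these genes were larger than counting error.

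From day 4 morning to day 4 evening, on the day on which the uterus becomes receptive, the members were higher again by a small amount. The median difference was 0.13 [0.09, 0.20] on the log2 scale, against 0 over all genes, and the direction held in all scalings. Other short genes, of at most 1000 bases, were higher too, with a median of 0.12 beside 0.16 for the members of that length. No member was more than 2-fold higher (7.21% of all genes) and 1, Rpl3l, was more than 2-fold lower (6.95% of all genes). Higher by any amount were 56 of 81 members, beside 49.5% of all genes, and 67 of 81 with library totals. Totals put the median of all genes at 0.05, and the share of all genes that were higher was not computed for them. The median was 0.26 [0.09, 0.36] for the 31 small subunit genes and 0.10 [0.03, 0.15] for the 41 large subunit genes, and the intervals overlapped. Among the largest differences upward were those of the small subunit genes Rps12 (0.50 [0.28, 0.72]) and Rps18 (0.43 [0.40, 0.47]). Downward they were of Rps2 (-0.25 [-0.32, -0.18]), Rps10 (-0.24 [-0.36, -0.13]) and Rps4y2 (-0.22 [-0.31, -0.14]).

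From day 4 evening to day 5 away from the embryo the members had a median difference of -0.03 [-0.15, 0.01] on the log2 scale, against 0.007 over all genes, and this sign turned with library totals (0.19) and with totals without Rn45s and Lars2 (0.10). Lower by any amount were 46 of 81 members, beside 49.2% of all genes, and 25 of 81 with library totals. Totals put the median of all genes at 0.23, and the share of all genes that were lower was not computed for them. Around this median near 0 single members differed in both directions, though less than all genes, which were not matched for level. The distance between the quartiles of the differences was 0.461 for the members and 1.02 for all genes. Rps2 was more than 2-fold higher (1 of 81 members, beside 12.9% of all genes), and Rps27 and Rpl3l were more than 2-fold lower (2 of 81, beside 12.7%). More than 1.5-fold lower were 13 members, beside 22.1% of all genes. Among the abundant members the largest differences downward were of Rpl7 (-0.94 [-0.96, -0.92]), Rpl22l1 (-0.91 [-0.96, -0.85]) and Rps14 (-0.90 [-0.93, -0.86]). Upward, Rps2 was followed by Rpl12, a protein at the base of the stalk (0.55 [0.33, 0.77]), and Rpl29 (0.49 [0.44, 0.53]).

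From day 4 evening to day 5 around the embryo most members were lower. The median difference was -0.36 [-0.44, -0.20] on the log2 scale, against -0.02 over all genes, and it was negative in all scalings and filters run. Lower by any amount were 65 of 81 members, beside 50.9% of all genes. More than 2-fold lower were 11 members (13.6%), beside 20.7% of all genes, and more than 1.5-fold lower were 24 members, beside 30.3% of all genes. The shift was thus seen in the number of members on the lower side and not in the number past a fold size, of which there were no more than among all genes. The median was -0.40 [-0.76, -0.20] for the small subunit and -0.36 [-0.42, -0.18] for the large subunit.

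The 11 members past 2-fold came from both subunits and a paralog. Among them were Rps27, Rps14, Rps27a, Rpl22, Rpl7, Rpl31, Rps15a, Rpl22l1, Rpl39 and Rps20. Rpl7, one of the most abundant members, had 30101 counts on day 3, 44568 and 44931 on day 4 (morning and evening), and on day 5 27576 away from the embryo and 20999 around the embryo. It was high on both times of day 4, and its difference from day 4 evening to around the embryo was -1.22 [-1.24, -1.20]. Rps14, known from the deletion on the long arm of a chromosome that causes a form of anaemia in people, had 16361, 17525, 18479, 11702 and 8048 counts in the same order. It too was lower in both day 5 libraries than in all earlier ones, with a difference of -1.32 [-1.36, -1.28] around the embryo.

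Rps27a, which is made as a fusion with ubiquitin, had 4264, 5151, 5972, 4428 and 2699 counts and a difference of -1.27 [-1.33, -1.20]. Rpl39, a small protein in the wall of the exit tunnel, had 4026, 4143, 4559, 3580 and 2458 counts and a difference of -1.01 [-1.08, -0.94]. Both were lower in the library from around the embryo than in the other 4. Rps27 had 48, 71, 120, 54 and 30 counts, and its difference of -2.05 [-2.75, -1.54] rests on these low counts in a gene overlapped by Gm9846. Rpl5 and Rpl11, which bind 5S ribosomal RNA and can hold the p53 regulator Mdm2, differed by -0.64 [-0.70, -0.59] and -0.87 [-0.96, -0.79].

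A few members went the other way. Rps2 had 6593, 4253, 3149, 7979 and 6962 counts. It was lowest on day 4 evening and highest away from the embryo, with differences of 1.10 [1.04, 1.16] to that library and 1.02 [0.96, 1.08] to the one around the embryo. In the latter comparison, 2 of 81 members were more than 2-fold higher, Rps2 and Rpl39l, beside 19.1% of all genes. Rpl29, a large subunit protein, had 5470, 7440, 5671, 9368 and 8025 counts and a difference of 0.38 [0.33, 0.43] around the embryo.

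In the stalk, which draws the elongation factors to the ribosome, the members did not go together. Rplp0, the scaffold of the stalk, had 25268, 30246, 22964, 34254 and 30499 counts and differed by 0.29 [0.26, 0.31] from day 4 evening to around the embryo. Rplp2 had 793, 635, 658, 844 and 907 counts and differed by 0.34 [0.19, 0.49]. Rplp1, its partner in the stalk dimer, had 9685, 9643, 9785, 10192 and 7203 counts and differed by -0.56 [-0.61, -0.52]. Rplp1 was lowest around the embryo, where Rplp2 had its highest level.

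**Figure D3:**
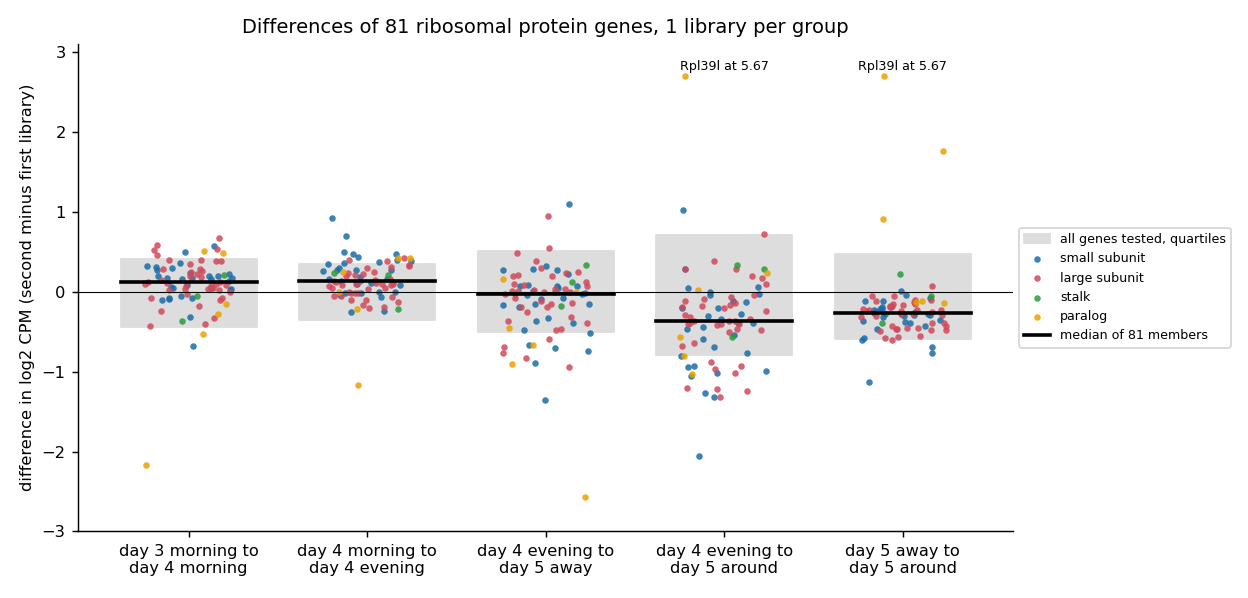
Difference in log2 CPM (second minus first library) of the 81 members tested in each comparison, coloured by role, with the median of the members (black line) and the quartiles of all genes tested (grey). The medians are 0.12, 0.13, -0.03, -0.36 and -0.27, and the members, whose median level is higher, lie closer together than all genes. Rpl39l, which rests on a library at 0, is drawn at the upper edge in the last 2 comparisons with its fitted value written beside it.

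Between the 2 day 5 libraries, which differ in labelled pole as well as in distance from the embryo, the members were lower around the embryo in a narrow band. The median difference of around against away was -0.27 [-0.29, -0.22] on the log2 scale, against -0.05 over all genes, and it was negative in all scalings and filters run. Lower around the embryo by any amount were 75 of 81 members, beside 52.9% of all genes. More than 2-fold lower was 1 member, Rps21, beside 15.0% of all genes, and 2 were more than 2-fold higher, Rpl39l and Rpl3l, beside 13.4%. The distance between the quartiles of the differences was 0.241 for the members and 1.06 for all genes, which were not matched for level. Of the 31 small subunit genes 30 were lower, and of the 41 large subunit genes 40 were. Summed over the 84 members, the level was 27058 CPM away from the embryo and 22429 CPM around it.

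Rps18 had the largest difference downward of the abundant members in this pair. It had 11367, 11177 and 13292 counts before attachment, 14026 away from the embryo and 7611 next to the embryo, a difference of -0.77 [-0.81, -0.73] between the day 5 libraries. The library around the embryo stood apart from the other 4. Rpl10a, a protein of the L1 stalk, differed by -0.61 [-0.67, -0.54] and Rps27a by -0.60 [-0.67, -0.53]. Rps21, at 95 counts away and 39 around, differed by -1.13 [-1.75, -0.62]. The abundant members that were higher around the embryo were Rps4y2 (0.91 [0.81, 1.00]), Rplp2 (0.22 [0.08, 0.36]) and Rpl9 (0.08 [-0.01, 0.16]), the last within counting error, and Rps16, at 0.01, was close to level. With library totals Rplp2 (-0.09), Rpl9 (-0.23) and Rps16 (-0.30) were lower instead, and Rps4y2 stayed higher.

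Gene length moved with some of these medians. The members are short, with a median length of 725 bases against 2870 for all genes tested, and 62 of the 81 are at most 1000 bases long. Among 858 other genes of at most 1000 bases the median difference from day 4 evening to around the embryo was -0.43, and among the 62 short members it was -0.34. Between the day 5 libraries the medians were -0.18 for the short other genes, of which 61.3% were lower, and -0.24 for the short members. In the first comparison the signs parted, with -0.13 for the short other genes and 0.09 for the short members. From day 4 morning to day 4 evening the medians were 0.12 and 0.16, and in genes of up to 500 bases 0.32 for the others and 0.31 for the members. From day 4 evening to away from the embryo they were -0.27 for the short other genes and -0.01 for the short members. The part of length in the differences of the members was not tested, and fewer cells with these mRNAs cannot be told apart from less of the mRNA in each cell.

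The paralogs differ from the core genes in that several are known mainly from testis or muscle. Rpl39l and Rpl10l, both best known from male germ cells, were found almost only around the embryo. Rpl39l had 7 counts on day 3 morning, 0 in the next 3 libraries and 99 around the embryo, which was at least 35.7-fold higher than away from the embryo and at least 30.3-fold higher than on day 4 evening when those libraries were set at the floor of 3 counts. Rpl10l had 0 counts in the 4 other libraries and 39 around the embryo, at least 14.1-fold higher than away and 11.9-fold higher than on day 4 evening on the same floor. Both stayed far below their partners, at 1.93% of the RPKM of Rpl39l and Rpl39 together and 1.07% of that of Rpl10l and Rpl10. The embryo markers named above had counts in the same library, and their part in these counts was not tested. Rpl39l passed the filter of 1 CPM through this library alone.

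Rpl3l, the paralog of Rpl3 in striated muscle, had 34, 51, 19, 2 and 11 counts, and the difference between the day 5 libraries, with 2 counts in one of them, was 1.76 [0.38, 5.79]. It was at most 0.424% of the RPKM of its pair. Rpl22 and Rpl22l1, RNA-binding proteins that can replace each other, were both abundant. Rpl22l1 had 6461, 5526, 6499, 4087 and 3452 counts and Rpl22 had 6290, 7215, 7106, 5203 and 3270. Per length, Rpl22l1 made up 76.6% to 81.9% of the RPKM of the pair in every library, while both were lower on day 5.

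Rps27l had 95.5% to 98.4% of the RPKM of its pair with Rps27, in which Rps27 is overlapped as described. Rpl7l1, a nucleolar relative of Rpl7, had 1.6% to 3.84%, with counts of 2193, 2030, 2118, 2796 and 2343 that moved little while those of Rpl7 were lower on day 5. Rps4y2, which RefSeq lists as the transcribed pseudogene Rps4l, had 1762, 2544, 1921, 1424 and 2465 counts. Its share of the RPKM with Rps4x was 10.9% away from the embryo and 19.1% to 23.6% in the other 4 libraries. Rps4x, on the X chromosome, was highest away from the embryo, with 10866 counts.

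**Figure D4:**
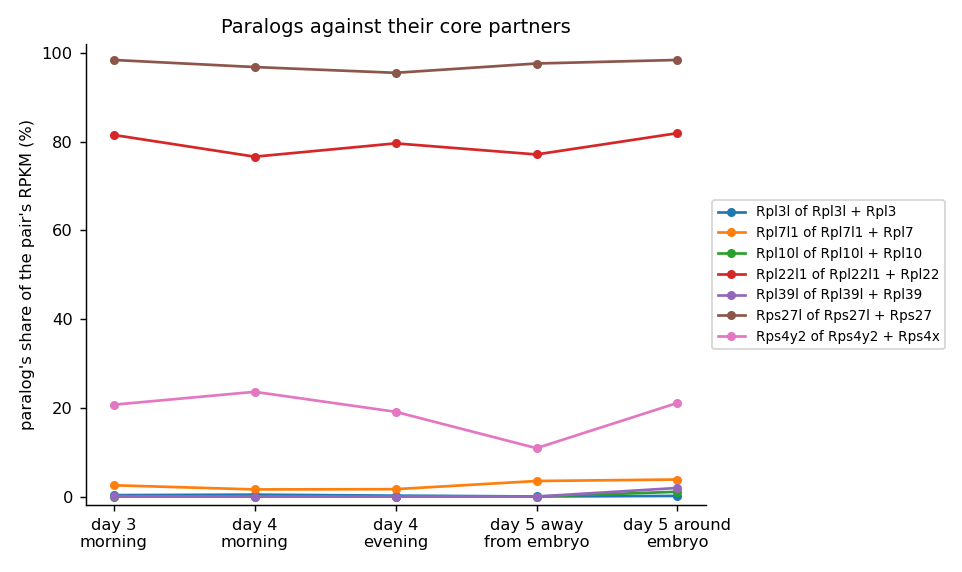
Share of each paralog in the RPKM of the pair with its core partner (%), by library. Rps27l and Rpl22l1 lie above 76% in all 5 libraries, Rps4y2 falls to 10.9% away from the embryo, and Rpl39l (1.93%) and Rpl10l (1.07%) leave 0 around the embryo.

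Ribosomal proteins outside the naming rule, of which 4 were tested, followed the members only in part. Fau, the source of Rps30, had 1442, 2499, 2377, 2203 and 2478 counts, with a difference of 0.74 from day 3 to day 4 morning. Gnb2l1, which encodes Rack1, lay between 4827 and 5884 counts, and Rpl36al between 3319 and 4406. From day 4 evening to around the embryo these 3 genes differed by -0.06, -0.09 and -0.53, all of them downward. The median of the 4 tested genes was -0.15 there, beside -0.36 for the members. Between the day 5 libraries 2 of the 4 were higher around the embryo, Fau (0.28) and Rpl36al (0.06), and 2 were lower. Their median was -0.04, beside -0.27 for the members. With library totals Fau (-0.03) and Rpl36al (-0.25) were lower instead.

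The genes that build the ribosome had medians on the other side of 0 from its proteins in 3 of the 5 comparisons, and on the same side from day 4 morning to evening and between the day 5 libraries. Whether the lists differ was not tested. Of 62 tested genes of ribosome biogenesis, which process ribosomal RNA and assemble the subunits in the nucleolus, 55 were lower from day 3 to day 4 morning, with a median of -0.47 on the log2 scale beside 0.12 for the members. From day 4 morning to evening 58 of the 62 were higher, with a median of 0.44 beside 0.13 for the members. In this step Gnl3, the nucleolar GTPase nucleostemin, had the largest difference upward (1.22), and in the first Tcof1, the treacle protein of ribosomal RNA transcription, the largest downward (-1.58). From day 4 evening their median was 0.38 to the library away from the embryo (47 of 62 higher) and 0.36 to the one around it (45 of 62 higher), where the members had -0.03 and -0.36. Gnl2, another nucleolar GTPase, had the largest differences here, 2.67 and 3.51. These 4 directions held in all scalings. Between the day 5 libraries the median of the list was -0.03, and 0.03 with DESeq2 size factors, beside -0.27 for the members. Since the sign of the members turned with library totals in the first comparison and to the library away from the embryo, both sets were then on the same side of 0 there. Among all genes, 49.1% were lower in the first comparison, and 49.5%, 50.4% and 49.1% were higher in the next 3.

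The other lists around the ribosome had medians of either sign. The 15 genes of ribosomal RNA synthesis had medians of -0.31, 0.24, 0.14, 0.05 and -0.13 in the order of the comparisons. The 76 mitochondrial ribosomal protein genes, a list added after values were seen, had medians of -0.23, 0.18, -0.14, -0.26 and -0.16. From day 4 evening to around the embryo 54 of the 76 were lower, beside 50.9% of all genes. The medians of this list were on the side of the cytosolic members in all scalings from day 4 morning to evening and in the last 2 comparisons. With library totals the sign of the medians turned for mitochondrial ribosomal proteins to the library away from the embryo (0.09) and for ribosomal RNA synthesis to the one around it (-0.04). For 33 initiation factors the medians were -0.05, 0.11, 0.18, 0.07 and 0.23. For 9 elongation factors they were -0.20, 0.14, 0.12, 0.43 and 0.04. With library totals the last 2 of the initiation factors became -0.01 and -0.08 and the last of the elongation factors became -0.27.

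**Figure D5:**
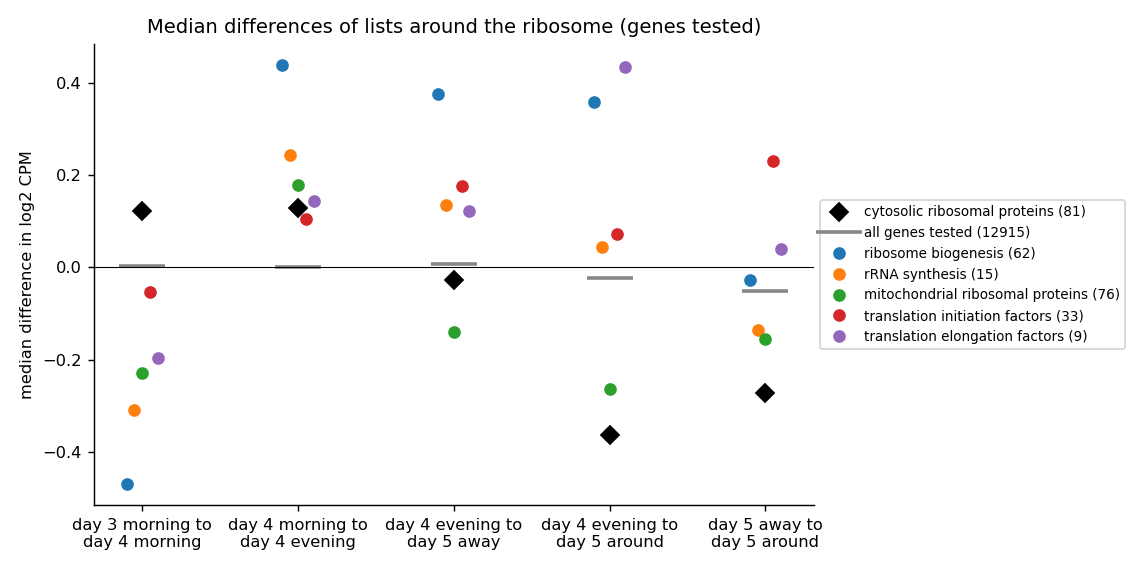
Median difference in log2 CPM in each comparison of the 81 ribosomal protein genes (black diamonds), all 12915 genes tested (grey bars) and lists around the ribosome (coloured points, with the number of genes tested). Ribosome biogenesis lies at -0.47 where the ribosomal proteins lie at 0.12, and at 0.36 around the embryo on day 5 where they lie at -0.36.

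Genes that carry a TOP element without being ribosomal proteins of the rule went both ways in the first 4 comparisons and were mostly lower around the embryo between the day 5 libraries. Of 18 such genes, 11 were lower from day 4 evening to around the embryo, with a median of -0.15, beside 50.9% of all genes. Between the day 5 libraries 14 of the 18 were lower around the embryo, with a median of -0.16, beside 52.9% of all genes. With library totals 17 of 18 were lower, where the median of all genes was itself at -0.36. Eif3e, a subunit of an initiation factor, had 2265, 2594, 2426, 1657 and 1191 counts and a difference of -1.15, whereas Eef1g, a subunit of an elongation factor complex, had 4059, 3663, 2426, 4801 and 5200 counts and a difference of 0.98. Eef1a1, the elongation factor with the most counts in this list, differed by -0.28. Gas5, a noncoding host of small nucleolar RNAs, was highest away from the embryo with 3640 counts.

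The known regulators of ribosomal protein genes were not level. Myc, which drives ribosome synthesis, had 869, 268, 561, 2209 and 1095 counts, and Mycn had 765, 172, 328, 2576 and 2207. Both were lowest on day 4 morning and highest away from the embryo. Eif4ebp1, the mTOR target that blocks the cap-binding factor, had 595, 275, 264, 2593 and 5417 counts, and its level around the embryo was the highest of the 5 libraries. Larp1 (1870, 2243, 1466, 2519 and 2443 counts) and Mtor (230, 254, 175, 394 and 313 counts) differed by 0.61 and 0.71 from day 4 evening to around the embryo. The list of 21 tested regulators from which these 5 come went both ways in that comparison, with 11 higher and 10 lower and a median of 0.15, beside 49.1% and 50.9% of all genes. Cnbp, an RNA-binding protein that binds TOP mRNAs, differed by -0.88 [-0.91, -0.85], and Maf1, a repressor of RNA polymerase III, by -0.48 [-0.59, -0.37].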

How the data were processed

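Luminal layer RNA of wild-type mice was read from 5 RNA-seq libraries, 1 per group. The authors isolated epithelia by laser microdissection, amplified RNA with SMART-seq v.4, aligned paired-end reads to GRCm38/mm10 with HISAT2 and counted reads with featureCounts of Subread 2.0.0, as far as the study's methods and the submitters' processing notes state it. Annotation, strand, multiple alignments and pooling of mice for these libraries were not given in the sources used here. The authors deposited raw counts per gene, with coordinates and length, without normalization, and 0 columns were left unmapped.

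Counts were scaled by TMM (edgeR 4.0.16, R 4.3.3) and analysed in Python 3.11.15 with pandas 2.3.3, numpy 2.4.6 and scipy 1.17.1. Plots used matplotlib 3.10.9. Log2 CPM had a prior count of 2. Genes whose mean reached 1 CPM were compared ("tested"). No test was run, since each group has 1 library. "Past 2-fold" is a log2 difference beyond 1. Totals lay between 15334674 and 19529491, and after TMM scaling the floor of 3 counts was 0.161 to 0.19 CPM. PCR reads without molecular identifiers are not independent molecules, so intervals and floors cover counting error only. The computation was tested on simulated data.

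The members and all lists were chosen with earlier results of these data known. Named were the 3 largest differences in each direction per comparison among members whose mean reached 10 CPM, the 5 highest and lowest by RPKM, stalk genes, paralogs with their partners, members past 2-fold, ribosomal proteins outside the rule, the ends of each list, and Myc, Larp1, Mtor and Eif4ebp1. Outside this rule, Rpl5, Rpl11, Rps16, Rps29, Mycn and some other list genes were named after their values were seen. Alternatives were DESeq2 1.42.0 size factors, library totals with and without Rn45s and Lars2, TMM on other genes, a prior count of 0.5, no filter, a mean CPM filter of 5 and leaving out paralogs. Members with little shared sequence were added after seeing the data. 100-base words came from GENCODE M21 transcripts and promoters from RefSeq. A few genes that meet these rules are not reported here.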

Additional observations from a re-analysis of the deposited data

How the results depend on the processing

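Library scaling moved the medians of the ribosomal protein genes. With library totals they were -0.18 from day 3 to day 4 morning and 0.19 from day 4 evening to away from the embryo, and with totals without Rn45s and Lars2 -0.030 and 0.10, in each case with the sign turned, while the median of all genes shifted by -0.29 and 0.23 with totals. From day 4 evening to around the embryo the median was -0.45 with totals and -0.51 with totals without Rn45s and Lars2, and between the day 5 libraries -0.58 and -0.56, and -0.21 with DESeq2 size factors. Relative to all genes and with no filter the latter was -0.26. The shares of counts without Rn45s and Lars2 were 3.379%, 3.351%, 3.65%, 3.559% and 2.423%. The members more than 2-fold lower from day 4 evening to around the embryo were 11 with TMM, 8 with DESeq2 size factors, 16 with totals and 17 with totals without Rn45s and Lars2. Shares of all genes past a fold size are given for TMM only. Among the other 100 recomputed values of the whole set, the shares and medians kept their direction and moved by less than their intervals or by less than 1.5 times. Some small 2-fold counts moved by more. With totals, 2 members and not 1 were more than 2-fold higher from day 4 evening to away from the embryo. With the same scaling 1 and not 2 were more than 2-fold higher to around it, and 2 and not 1 were more than 2-fold lower between the day 5 libraries. With totals the small and large subunit medians turned sign as well, and were -0.14 and -0.19 from day 3 to day 4 morning (0.16 and 0.11 with TMM) and 0.15 and 0.22 from day 4 evening to away from the embryo (-0.07 and -0.01 with TMM). Without Rn45s and Lars2 in the totals the large subunit was at -0.04 in the former, and both were above 0 in the latter (0.06 and 0.12). The members highest on day 4 evening were 37 with TMM and 20 at the fewest, with library totals, where 47 were highest away from the embryo. Of 400 recomputed differences of the 20 named members, 157 left the counting interval and none past 2-fold changed sign. The causes were not tested. Few counts limit the values of Rps21, Rpl3l, Rpl10l and Rpl39l, and also those of Rpl26, Rpl30, Rpl34 and Rps27, in which the part of overlapping features was not tested. No paired analysis was possible because each group has 1 library.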
